A study of Mus musculus with 13 samples.

Results

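The nuclear-encoded subunits of the mitochondrial respiratory chain were examined in splenic CD205+CD8+ dendritic cells that had been sorted by their level of CD103. Members were taken by gene symbol: symbols that begin with Nduf, Uqcr, Cox4, Cox5, Cox6, Cox7, Cox8 or Atp5, together with Sdha, Sdhb, Sdhc, Sdhd and Cyc1. Of 22180 genes with a probe set of a single symbol, 90 were members. Complex I gave 32 of them, complex I assembly factors 8, complex II 4, complex III 8, complex IV 19 (Ndufa4 and its paralog Ndufa4l2 included), and complex V, the ATP synthase, 17. The remaining 2, Atp5c1-ps and Uqcrh-ps1, are pseudogenes by their symbols. The Atp5 and Ndufaf prefixes thus bring in genes that are not subunits of an electron-transfer complex in the strict sense.

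The respiratory chain sits in the inner mitochondrial membrane. Complexes I and II pass electrons from NADH and succinate to ubiquinone, complex III hands them on to cytochrome c, and complex IV reduces oxygen. Complexes I, III and IV pump protons, and complex V uses the proton gradient to make ATP. Most subunits are encoded in the nucleus and imported, while a small set is encoded by mitochondrial DNA. In dendritic cells, activation through microbial sensors is known to shift metabolism between oxidative phosphorylation and glycolysis.

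Male C57Bl/6 littermates, per the labels, had all been given B16 melanoma cells under the skin at 6 weeks of age. The tumor cells release Flt3L, a cytokine that expands dendritic cells. After 5 days the mice received 50 µg of MDP in 100 µl of PBS, or PBS alone, by intraperitoneal injection, and cells were sorted 24 hours later. MDP, muramyl dipeptide, is the peptidoglycan piece that the cytosolic receptor NOD2 detects. The groups were MDP CD103 high (n = 3 arrays, numbers 2, 3 and 4), MDP CD103 low (n = 3, numbers 1, 2 and 3), PBS CD103 high (n = 3, numbers 4, 5 and 6) and PBS CD103 low (n = 4, numbers 1, 3, 4 and 6). The tumor and its Flt3L were thus shared by treated and control animals. The labels do not say whether an array was made from 1 mouse or from a pool. The p-values thus weigh group differences against the spread between arrays within groups, which is not known to be that between single mice. The design asks how each sort gate answered MDP and how the gates differed within each treatment.

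Values are on the log2 scale of the authors' normalisation, in which a difference of 1 is a doubling. Because arrays had been brought to one distribution, a change shared by most genes would not be seen, and fewer cells of a type cannot be told apart from less RNA per cell. Levels of different probe sets were not compared, except with a background level of 5.12, the 95th percentile of 1105 olfactory receptor genes. Of all 22180 genes, 11716 had a mean above this level. Itgae, which encodes CD103, measured 11.10 to 11.51 on MDP CD103 high arrays, 9.64 to 10.68 on MDP CD103 low arrays, 10.07 to 10.22 on PBS CD103 high arrays and 7.46 to 8.35 on PBS CD103 low arrays. The CD103 low cells of MDP mice therefore had Itgae levels that spanned those of the CD103 high cells of PBS mice. All 10 measured markers of CD8+ conventional dendritic cells were above background, among them Xcr1, Batf3 and Irf8. Of the markers of other cells, 0 of 3 erythroid, 1 of 8 neutrophil, 1 of 5 B cell, 1 of 5 T cell, 1 of 5 natural killer cell and 2 of 6 melanoma markers were above background, against 7 of 9 plasmacytoid (the member Cox6a2 among them), 6 of 8 cDC2 and 7 of 8 monocyte or macrophage markers. Xist, which is transcribed from an inactive X chromosome, was high on 7 arrays (10.98 to 11.21) and low on 6 (4.47 to 6.69) although every sample is labelled male. Each group held arrays of both kinds.

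Some promoters of the members carried letters of factors long associated with respiratory genes. For each complex 1 window that holds a match is shown. These windows are not typical, since each motif searched was absent from most member windows. RefSeq (GRCm38.p6) gave promoter windows, from 250 bases before to 50 bases after a start, for 72 of the 90 members, 77 windows in all. The motif searched for NRF1, a factor that activates many respiratory genes, was GCGCATGCG on either strand. It occurred in 12.99% of member windows, against 1.75% of all 32851 windows. The ETS motif CCGGAAG, bound by the GABP factor among others, occurred in 24.7% of member windows and in 8.86% of all windows. The YY1 motif AAGATGGC occurred in 12.99% of member windows and in 2.75% of all windows. The cyclic AMP response element TGACGTCA occurred in 3.90% of member windows and in 1.79% of all windows, and the TATA letters TATAAA in 11.7% of member windows and in 13.6% of all windows. Member windows held more CpG pairs, with a median of 20 against 7 in all windows. Among windows with at least 10 CpG pairs the shares were 13.7% of 73 member windows against 3.85% of 14281 for NRF1, 26.03% against 17.3% for ETS, 13.7% against 4.33% for YY1 and 4.11% against 3.37% for the cyclic AMP response element. For the TATA letters the order turned, at 10.96% of these member windows against 5.63%. By complex, the NRF1 motif occurred in 2 of 31 windows of complex I, 2 of 4 of complex III and 1 of 14 of complex IV. The cyclic AMP response element occurred in 2 of 31 windows of complex I. The ETS motif occurred in 2 of 3 windows of complex II, 3 of 14 of complex IV and 6 of 18 of complex V, and the YY1 motif in 3 of 18 of complex V. All motifs were counted on both strands, and a match describes letters only.

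Ndufa11, an accessory subunit of the complex I membrane arm, has its window at chr17:56717512-56717811 on the plus strand, Sdhb, the iron-sulfur subunit of complex II, at chr4:140961021-140961320 on the plus strand, and Uqcrc1, a core subunit of complex III, at chr9:108936398-108936697 on the plus strand. The window of Cox6a1, a complex IV subunit, lies at chr5:115348909-115349208 and 1 window of Atp5j, coupling factor 6 of the ATP synthase, at chr16:84834927-84835226, both on the minus strand. A further window of Atp5j, at chr16:84835576-84835875, matched none of the motifs searched and is not printed. The others are printed 5′ to 3′ with the motif letters in capitals.
Ndufa11: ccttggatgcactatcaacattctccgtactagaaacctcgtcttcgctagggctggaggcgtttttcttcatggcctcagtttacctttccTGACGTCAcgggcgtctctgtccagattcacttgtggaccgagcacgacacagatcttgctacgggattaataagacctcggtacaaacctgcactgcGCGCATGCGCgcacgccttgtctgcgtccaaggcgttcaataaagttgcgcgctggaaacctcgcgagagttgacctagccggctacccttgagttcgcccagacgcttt
Sdhb: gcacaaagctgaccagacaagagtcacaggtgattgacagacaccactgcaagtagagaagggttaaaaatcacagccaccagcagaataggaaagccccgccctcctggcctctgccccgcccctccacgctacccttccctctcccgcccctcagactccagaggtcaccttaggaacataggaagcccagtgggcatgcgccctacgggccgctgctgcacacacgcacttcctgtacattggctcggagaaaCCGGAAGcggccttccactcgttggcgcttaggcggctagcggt
Uqcrc1: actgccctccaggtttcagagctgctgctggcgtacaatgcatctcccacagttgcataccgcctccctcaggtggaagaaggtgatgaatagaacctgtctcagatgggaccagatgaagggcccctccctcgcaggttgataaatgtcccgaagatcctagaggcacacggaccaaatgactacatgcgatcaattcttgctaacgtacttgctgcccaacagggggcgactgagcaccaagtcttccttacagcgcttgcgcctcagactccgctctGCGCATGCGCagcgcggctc
Cox6a1: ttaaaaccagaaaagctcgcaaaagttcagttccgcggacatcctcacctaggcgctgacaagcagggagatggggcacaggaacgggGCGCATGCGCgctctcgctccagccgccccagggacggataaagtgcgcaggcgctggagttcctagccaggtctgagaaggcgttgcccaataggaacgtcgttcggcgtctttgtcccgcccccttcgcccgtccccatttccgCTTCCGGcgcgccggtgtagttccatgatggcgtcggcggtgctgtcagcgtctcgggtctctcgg
Atp5j: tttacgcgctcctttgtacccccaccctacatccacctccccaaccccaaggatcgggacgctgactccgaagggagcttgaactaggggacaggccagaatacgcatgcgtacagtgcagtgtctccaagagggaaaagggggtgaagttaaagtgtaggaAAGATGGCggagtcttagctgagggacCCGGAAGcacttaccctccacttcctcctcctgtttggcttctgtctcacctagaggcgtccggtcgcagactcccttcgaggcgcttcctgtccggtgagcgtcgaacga
In Ndufa11 the capitals mark the cyclic AMP response element and, after it, the NRF1 letters, which overlap on the 2 strands because the motif is nearly its own reverse complement. Sdhb shows a single ETS match, Uqcrc1 the NRF1 letters on both strands, Cox6a1 NRF1 letters on both strands and an ETS match on the minus strand of the window, and Atp5j a YY1 and an ETS match. Of the 5 genes shown, Ndufa11 was the only one with an unadjusted p under 0.05 in a comparison described below.

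Most members were above background and varied little. Of the 90, 82 had a mean above background, against 11716 of all 22180 genes. The 8 other members were Ndufs5, Atp5o, Ndufa4l2, Cox7b2, Cox8b, Cox8c and both pseudogenes. The median SD within groups was 0.0848 for the members, against 0.138 for all genes. Above background it was 0.0811 for members, against 0.117 for all genes. These SDs were not matched for the level of the genes. For 74 members the 4 group means lay within 0.25 of each other.

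After MDP, 0 of 90 members passed an adjusted p of 0.05 in CD103 high cells by limma, a comparison in which 403 genes, or 1.82% of all genes tested, passed. Leaving out replicate 6 of PBS CD103 high lowered it to 82 genes, and leaving out replicate 5 of that group to 94. At an unadjusted p under 0.05, 8 members differed, all with higher values after MDP, which is 8.89% of the members against 13.3% of all genes. The median difference over the members was 0.05, against -0.01 over all genes, and 64 members (71.1%) lay above 0, against 46.3% of all genes. The 95% confidence interval of the difference lay within 1.5-fold in either direction for 87 members and within 2-fold for all 90. On 20 members (22.2%) every MDP array exceeded every PBS array, against 8.96% of all genes, and on 3 (3.33%) every MDP array was below, against 10% of all genes. Among genes above background the shares were 22% of 82 members against 13.6% of all such genes for higher values and 3.66% against 13.4% for lower values. Without PBS CD103 high replicate 6 the median was 0.024.

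**Figure D1:**
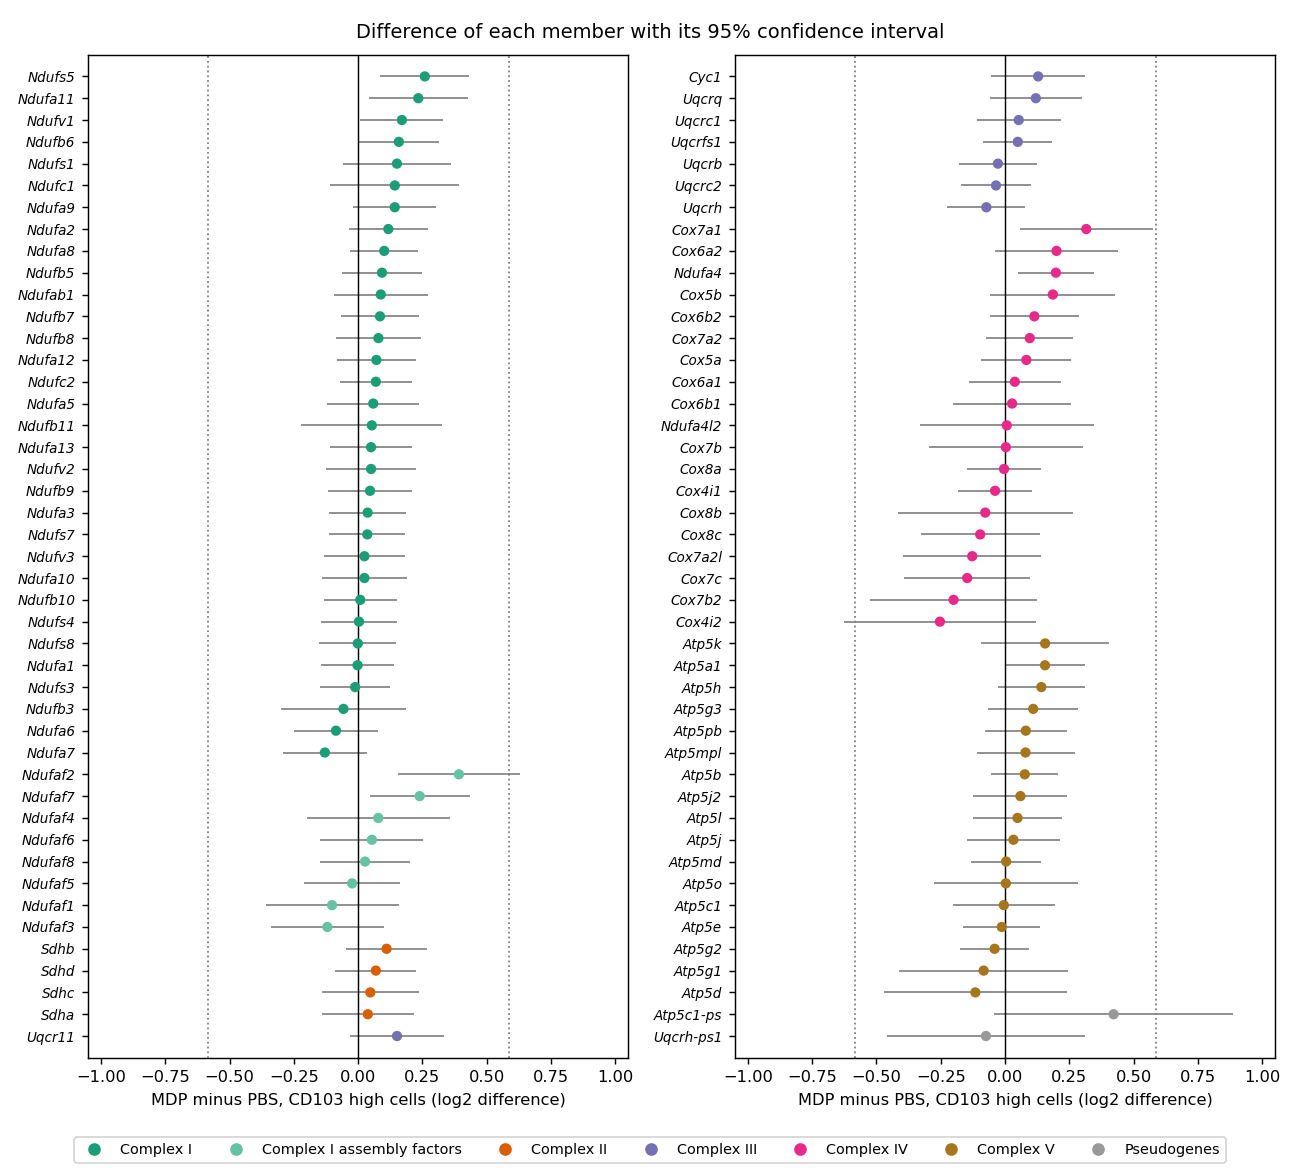
Difference between MDP and PBS mice in CD103 high cells (log2, horizontal axis) for each of the 90 members, ordered within complexes, with bars for the 95% confidence interval of the limma fit and dotted lines at 1.5-fold. The points crowd around 0, and Ndufaf2 and Atp5c1-ps lie farthest to the right at 0.39 and 0.42.

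In CD103 low cells 0 members passed after MDP by limma, and 1 gene in all did, or 0.00451% of all genes. At an unadjusted p under 0.05, 4 members differed, all with higher values after MDP, which is 4.44% of the members against 6.06% of all genes. The median difference was 0.05, against 0.004 over all genes. Above 0 lay 71 members (78.9%), against 51.5% of all genes and 58.1% of all genes above background. The confidence interval was within 1.5-fold for 88 members. Arrays did not overlap for 10 members (11.1%) with higher values after MDP, against 2.98% of all genes, and for 0 members with lower values, against 2.52% of all genes. Above background the shares of higher values were 12.2% of members against 3.87% of all such genes. Averaged over both gates, 0 members passed, against 0.185% of all genes, and 10 had an unadjusted p under 0.05, which is 11.1% of the members against 11.8% of all genes.

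The sign was often shared by both gates. The gates were compared on different arrays, but the labels do not say whether arrays of both gates came from the same mice. Values were higher after MDP in both gates for 54 of 90 members (60%), against 24.9% of all genes and 29% of all genes above background. They were lower in both for 9 members (10%), against 27% of all genes. This count rested in part on a few arrays. It was 39 of 90, against 24.1% of all genes, when both PBS arrays numbered 6 were left out, and 32 of 90, against 26% of all genes, on arrays with high Xist alone. The number 6 arrays of PBS mice had the lowest mean over all members of their groups, 8.42 in CD103 high cells and 8.45 in CD103 low cells. Members share arrays and are not independent of each other, so the count is a description.

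**Figure D2:**
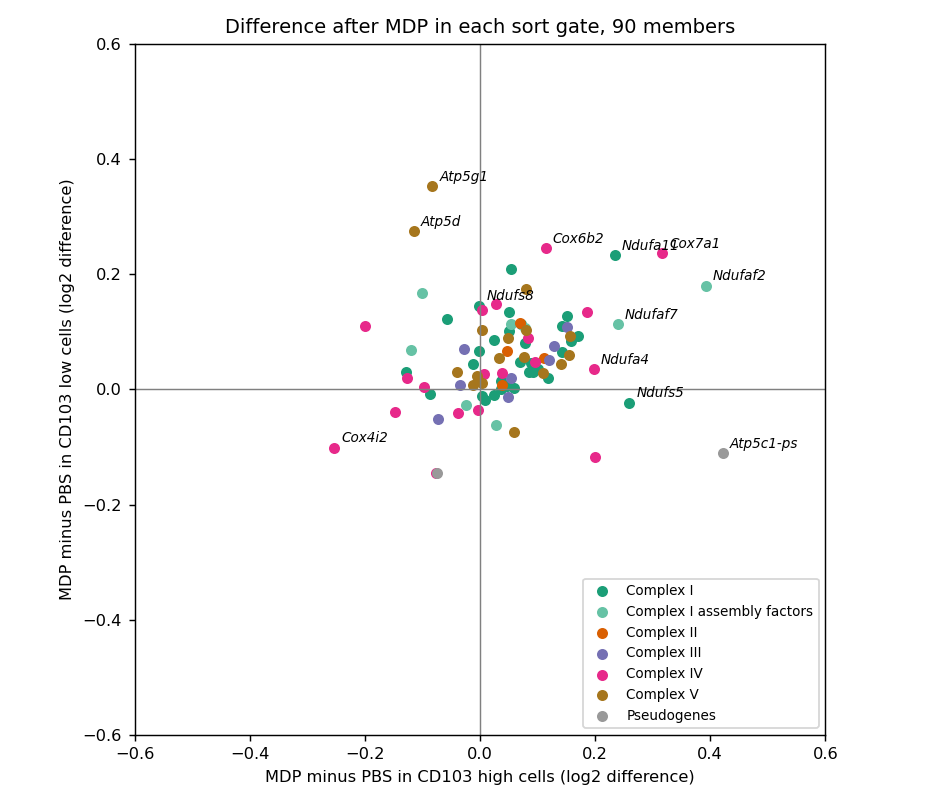
Difference between MDP and PBS mice in CD103 high cells (log2, horizontal axis) against that in CD103 low cells (log2, vertical axis), 1 point for each of the 90 members, coloured by complex. The upper right part, higher after MDP in both gates, holds 54 members, and Ndufa11 lies at 0.23 on both axes.

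The difference between gates ran the other way and was as small. In MDP mice 0 members passed by limma between CD103 high and CD103 low cells, against 116 genes or 0.523% of all genes. At an unadjusted p under 0.05, 2 members were on the higher and 4 on the lower side in CD103 high cells, which is 6.67% of the members against 10.2% of all genes. The median difference was -0.04, against -0.01 over all genes, and 22 members (24.4%) lay above 0, against 45.7% of all genes. Arrays did not overlap for 15 members (16.7%) that were lower in CD103 high cells, against 7.93% of all genes, and for 2 (2.22%) that were higher, against 6.43% of all genes. Above background, 15.9% of members were lower without overlap, against 10.3% of all such genes. The median was -0.025 without MDP CD103 high replicate 2.

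In PBS mice 0 members passed by limma between the gates, against 0.0766% of all genes. At an unadjusted p under 0.05, 1 member differed, or 1.11%, against 8.52% of all genes. The median difference was -0.04, against -0.003 over all genes, and 26 members (28.9%) lay above 0, against 48.9% of all genes. Arrays did not overlap for 6 members (6.67%) that were lower in CD103 high cells, against 4.05% of all genes, and for 0 that were higher, against 4.48% of all genes. Above background, 7.32% of members were lower without overlap, against 5.18% of all such genes. The median was -0.017 without PBS CD103 high replicate 6. Values were lower in CD103 high cells in both treatments for 52 members (57.8%), against 27.3% of all genes and 26.6% of all genes above background. This count also moved with the arrays used. It was 43 of 90 without PBS CD103 high replicate 6, and 39 of 90, against 27.9% of all genes, on arrays with high Xist alone. With the Xist class as a term it was 57. Averaged over treatments, 0 members passed, against 0.126% of all genes, and 7 had an unadjusted p under 0.05 (7.78% of the members, against 9.56% of all genes).

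The response to MDP was not found to differ between the gates for any member. In the interaction, 0 members passed by limma, against 0.0721% of all genes, and 1, Ndufs5, had an unadjusted p under 0.05 (1.11% of the members, against 9.63% of all genes). The median interaction was 0.01 and its sign turned under several alternatives. With arrays of the same treatment and number as a random block, the number of all genes that passed became 190 between the gates in MDP mice and 41 in the interaction, and 0 members passed in any comparison.

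The mean level of each complex moved little between groups. Complex I, the entry point for NADH, averaged 8.91 ± 0.032 in MDP CD103 high cells (SD, n = 3), 8.95 ± 0.016 in MDP CD103 low cells (n = 3), 8.85 ± 0.038 in PBS CD103 high cells (n = 3) and 8.89 ± 0.036 in PBS CD103 low cells (n = 4). The 3 MDP CD103 high arrays, at 8.88, 8.91 and 8.94, lay above the PBS CD103 high arrays, at 8.87, 8.87 and 8.80. The CD103 low arrays of complex I did not overlap either, at 8.94 to 8.97 after MDP and 8.84 to 8.92 after PBS. Complex V averaged 9.18 ± 0.039 in MDP CD103 low cells and 9.09 ± 0.035 in PBS CD103 low cells. These arrays narrowly did not overlap, with the lowest MDP array at 9.135 and the highest PBS array at 9.131. In CD103 high cells complex V averaged 9.09 ± 0.0072 after MDP and 9.05 ± 0.063 after PBS, and the arrays overlapped. Complex IV, the oxygen-reducing complex, averaged 7.94 ± 0.014 in MDP CD103 low cells and 7.90 ± 0.014 in PBS CD103 low cells, with no overlap. Only 15 of its 19 members were above background. By member, 13 of 19 lay above 0 after MDP in CD103 low cells (median 0.028). In complex I these were 26 of 32 (median 0.047) and in complex V 16 of 17 (median 0.057). Complex III averaged 9.36 ± 0.053 in MDP CD103 high cells and 9.32 ± 0.049 in PBS CD103 high cells, with overlap. Complex II averaged 8.74 ± 0.045 after MDP and 8.67 ± 0.018 after PBS in CD103 high cells, narrowly without overlap. In CD103 low cells it averaged 8.79 ± 0.059 and 8.73 ± 0.070, with overlap. The assembly factors overlapped in both gates, at 7.47 and 7.40 in CD103 high cells and 7.49 and 7.41 in CD103 low cells.

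**Figure D3:**
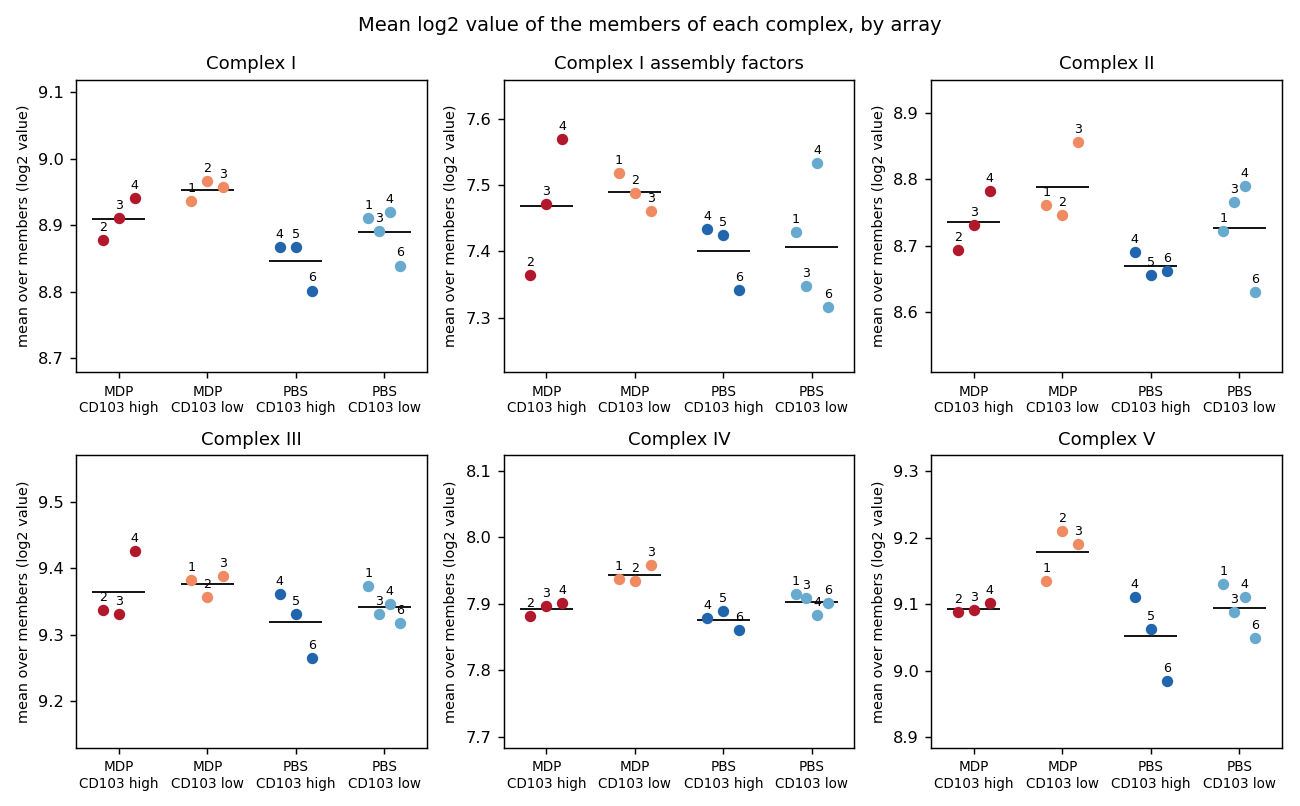
Mean log2 value over the members of each complex (vertical axis, each panel spanning the same width of values) on each of the 13 arrays, by group, with the replicate number above each point and a line at the group mean. MDP CD103 low arrays have the highest group mean in all 6 panels, and the PBS arrays numbered 6 are at or near the bottom of most panels.

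Among the complex I assembly factors, Ndufaf2, which helps to complete the enzyme, had the smallest p of all members after MDP in CD103 high cells. Its values were 6.75, 7.01 and 6.90 in MDP CD103 high cells, against 6.44, 6.60 and 6.45 in PBS CD103 high cells. The groups did not overlap, and the difference was 0.39 ± 0.11 (SE), a 1.31-fold ratio, with a limma adjusted p of 0.107. In CD103 low cells the values were 6.66, 6.88 and 6.77 after MDP, against 6.73, 6.67, 6.63 and 6.33 after PBS, which overlapped. Ndufaf7, a methyltransferase that modifies a core subunit, measured 8.19, 8.34 and 8.53 in MDP CD103 high cells and 8.11, 8.05 and 8.19 in PBS CD103 high cells (difference 0.24, adjusted p 0.257). It also had the only unadjusted p under 0.05 between the gates in PBS mice, with a difference of -0.20 and an adjusted p of 0.544. Ndufaf1, an early assembly factor, differed by -0.10 after MDP in CD103 high cells and by 0.17 in CD103 low cells, and Ndufaf5 and Ndufaf8, which work together, by -0.02 and 0.03 in CD103 high cells.

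Among complex I subunits, Ndufa11 showed the same difference in both gates. It measured 8.58, 8.58 and 8.52 in MDP CD103 high cells, against 8.32, 8.26 and 8.40 in PBS CD103 high cells, a difference of 0.23 ± 0.09 with an adjusted p of 0.268. In CD103 low cells it measured 8.64, 8.80 and 8.62 after MDP, against 8.47, 8.58, 8.53 and 8.25 after PBS, a difference of 0.23 ± 0.08 with an adjusted p of 0.767. Neither pair of groups overlapped. A second probe set of Ndufa11, near background at 5.29, differed by -0.06 in CD103 high cells and by -0.11 in CD103 low cells. Ndufv1, the NADH-binding flavoprotein, differed by 0.17 in CD103 high cells (adjusted p 0.344), and Ndufb6, a membrane-arm accessory subunit, by 0.16 (adjusted p 0.374). Ndufc2, also in the membrane arm, differed by 0.07.

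Ndufs8, a core subunit that carries iron-sulfur clusters, was set apart by the MDP CD103 low arrays. These measured 8.71, 8.83 and 8.70, against 8.63, 8.60, 8.63 and 8.55 on PBS CD103 low arrays, a difference of 0.15 ± 0.06 with an adjusted p of 0.814. In CD103 high cells Ndufs8 measured 8.50, 8.57 and 8.60 after MDP, against 8.48, 8.60 and 8.60 after PBS. The difference between the gates in MDP mice was -0.19 ± 0.07 (adjusted p 0.343). Ndufs5, an accessory subunit, had values of 4.64, 4.87 and 4.84 in MDP CD103 high cells against 4.53, 4.54 and 4.50 in PBS CD103 high cells, all below the background level, with a difference of 0.26 and an adjusted p of 0.15. Between the gates in MDP mice its difference was 0.30 (adjusted p 0.147). A probe set shared by Ndufs5 and a pseudogene, with a mean of 7.73, differed by 0.11 after MDP in CD103 high cells and by -0.17 between the gates in MDP mice.

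All 4 complex II genes lay above 0 after MDP in both gates, and 0 had an unadjusted p under 0.05. Sdhb measured 9.30, 9.36 and 9.38 in MDP CD103 high cells, against 9.27, 9.30 and 9.15 in PBS CD103 high cells. These groups did not overlap, but only narrowly. Its difference was 0.11 there and 0.05 in CD103 low cells. The flavoprotein Sdha differed by 0.04 in CD103 high cells and 0.01 in CD103 low cells. The membrane anchors Sdhc and Sdhd differed by 0.05 and 0.07 in CD103 high cells and by 0.07 and 0.11 in CD103 low cells. Between the gates of MDP mice the 4 genes lay between -0.02 and -0.09.

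In complex III, Uqcr11, a small subunit, measured 7.48, 7.37 and 7.59 in MDP CD103 high cells, against 7.27, 7.48 and 7.24 in PBS CD103 high cells. Its difference averaged over gates was 0.13 (adjusted p 0.405). Cyc1, which is cytochrome c1, measured 10.06, 10.01 and 10.30 in MDP CD103 high cells, against 10.02, 9.98 and 9.98 in PBS CD103 high cells, and differed by 0.13 with overlap. Uqcrb and Uqcrc2 differed by -0.03 and -0.04 in CD103 high cells, and the hinge protein Uqcrh by -0.07. None of the 8 genes of this complex had an unadjusted p under 0.05 in a comparison of 2 groups.

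Complex IV holds the chain's tissue-specific isoforms. Ndufa4, long listed in complex I and now counted in complex IV, measured 10.93, 10.90 and 10.93 in MDP CD103 high cells, against 10.75, 10.76 and 10.66 in PBS CD103 high cells. The groups did not overlap, and the difference was 0.20 ± 0.07 with an adjusted p of 0.203. In CD103 low cells its difference was 0.04. Its paralog Ndufa4l2 was below background and differed by 0.01 in CD103 high cells. Cox7a1, the heart and muscle form of subunit VIIa, measured 5.99, 5.86 and 6.18 in MDP CD103 high cells and 5.70, 5.69 and 5.70 in PBS CD103 high cells (difference 0.32 ± 0.12, adjusted p 0.263). The widely expressed Cox7a2 differed by 0.10, and its paralog Cox7a2l by -0.13.

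Cox6b2, the testis form of subunit VIb, measured 6.85, 6.53 and 6.70 in MDP CD103 low cells, against 6.48, 6.46, 6.42 and 6.45 in PBS CD103 low cells. All MDP arrays were above all PBS arrays, with a difference of 0.25 ± 0.07 and an adjusted p of 0.742. MDP CD103 high cells had 6.41, 6.43 and 6.47, and their difference from MDP CD103 low cells was -0.26 (adjusted p 0.239). The widely expressed Cox6b1 differed by 0.15 after MDP in CD103 low cells. Cox6a2, the heart and muscle form of subunit VIa and also a marker of plasmacytoid dendritic cells, measured 6.28, 6.39 and 6.18 in MDP CD103 high cells, against 5.77, 6.19 and 6.10 in MDP CD103 low cells (difference 0.26, adjusted p 0.434), and these groups overlapped. The 8 other plasmacytoid markers measured, 6 of them above background, had mean values of 5.93 to 6.01 on MDP CD103 high arrays and 6.08 to 6.21 on MDP CD103 low arrays. Cox6a1 differed by -0.12 in the same comparison. Cox4i1, the common form of subunit IV, differed by -0.04 after MDP in CD103 high cells and -0.04 in CD103 low cells, and Cox4i2, its lung form, by -0.25 in CD103 high cells, where 1 PBS array stood at 6.35 and the other 2 at 5.57 and 5.52. Cox8a differed by -0.04 in CD103 low cells, and Cox8b, Cox8c and Cox7b2, forms of muscle or testis, stayed below background on all arrays.

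In complex V, Atp5d, the delta subunit of the rotating stalk, gave the largest difference of the 90 members in the 4 comparisons of groups. It measured 5.76, 5.90 and 6.03 in MDP CD103 high cells, against 6.51, 6.25 and 6.65 in MDP CD103 low cells, with no overlap, a difference of -0.58 ± 0.16 and an adjusted p of 0.194. Its second probe set differed by -0.09, so the size rested on 1 of the probe sets of this gene. PBS CD103 low arrays ranged from 5.89 to 6.62. Atp5o, a peripheral stalk subunit whose probe set was below background, differed by -0.34 between the gates in MDP mice (adjusted p 0.372). Atp5a1, the alpha subunit of the catalytic head, measured 11.74, 11.75 and 11.73 in MDP CD103 high cells, against 11.72, 11.53 and 11.50 in PBS CD103 high cells, a difference of 0.16. Atp5h, of the peripheral stalk, differed by 0.14 and Atp5l, of the membrane part, by 0.05.

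Subunit c of the ATP synthase ring is encoded by a set of 3 genes for the same mature protein. Atp5g1 measured 5.56, 6.06 and 6.01 in MDP CD103 low cells, against 5.57, 5.44, 5.71 and 5.37 in PBS CD103 low cells (difference 0.35 ± 0.14, adjusted p 0.803), and the groups overlapped. In CD103 high cells its difference was -0.08. Atp5g2 differed by -0.04 in CD103 high cells and 0.03 in CD103 low cells, and Atp5g3 by 0.11 and 0.03. The pseudogene Atp5c1-ps, below background, differed by 0.42 in CD103 high cells, with an adjusted p of 0.436.

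**Figure D4:**
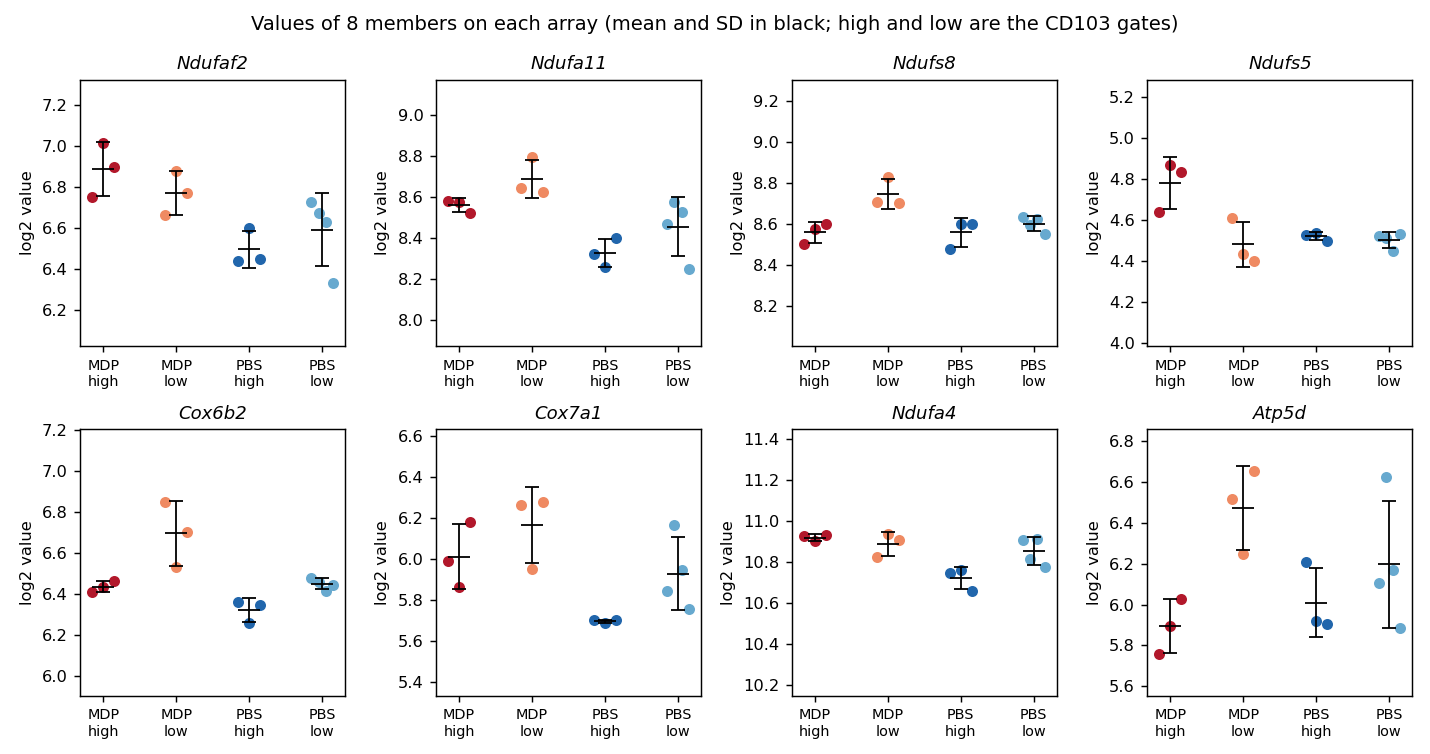
Log2 values on each array (vertical axis, equal width in all panels) of 8 members in the groups MDP CD103 high, MDP CD103 low, PBS CD103 high and PBS CD103 low, with the mean and SD in black. Ndufaf2, Ndufa4, Cox7a1 and Ndufa11 separate MDP from PBS in CD103 high cells, and Atp5d separates the gates in MDP mice only.

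Related mitochondrial genes outside the symbol rule were counted in the same fit. The 10 measured subunits encoded by mitochondrial DNA, of 13, had a median difference of -0.05 after MDP in CD103 high cells, with 1 above 0, and of -0.02 in CD103 low cells, with 5 above 0. ND5 had the smallest p of them, with a difference of -0.19 (adjusted p 0.383). Of 12 other subunits and electron carriers, 1 passed in CD103 high cells: Etfa, part of the flavoprotein that feeds electrons from fatty acid oxidation into the chain, rose by 0.34 after MDP (adjusted p 0.0461). It measured 10.05, 10.09 and 10.04 in MDP CD103 high cells, against 9.88, 9.68 and 9.61 in PBS CD103 high cells. Of 13 citric acid cycle enzymes, 12 lay above 0, and 1, the mitochondrial isocitrate dehydrogenase Idh2, rose by 0.47 (adjusted p 0.0407). It measured 8.44, 8.49 and 8.59 in MDP CD103 high cells, against 8.17, 8.08 and 7.85 in PBS CD103 high cells. Neither call was stable. With each of the 13 arrays left out in turn, Etfa passed 2 times (adjusted p 0.0152 to 0.197) and Idh2 4 times (adjusted p 0.0186 to 0.181), and without PBS CD103 high replicate 6, the lowest array for both, the differences were 0.28 and 0.38. The counts, 1 of 12 and 1 of 13, stand beside the 1.82% of all genes given above.

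Of 40 assembly factors outside the rule, 0 passed, with a median of -0.02 in CD103 high cells, and the smallest p values belonged to Uqcc3, at -0.32 (adjusted p 0.0646), and Sdhaf1, at -0.71 (adjusted p 0.0747), which assist complexes III and II. Of 71 mitochondrial ribosomal protein genes, 0 passed, with a median of 0.06, and Mrpl28 differed by 0.31 (adjusted p 0.0525). Of 17 regulators of mitochondrial biogenesis, 0 passed, with a median of 0.04, and Myc differed by 0.49 (adjusted p 0.220).

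Cell cycle and maturation genes differed by more in the same cells. All 29 cell cycle genes lay above 0 after MDP in CD103 high cells, with a median of 0.74. Of these, 20 passed the threshold, where 1.82% of all genes did. In CD103 low cells 0 passed and 10 lay above 0, with a median of -0.06. The mean of this list was 8.88 to 9.04 on MDP CD103 high arrays, against 8.10 to 8.49 on PBS CD103 high arrays. With single arrays left out between 2 and 22 of these genes passed, fewest (2, with a median of 0.64) without PBS CD103 high replicate 6, then 3 without its replicate 5 and 5 without replicate 2 or replicate 3 of MDP CD103 high. Of 26 genes of CCR7-type mature dendritic cells, 0 lay above 0 after MDP in CD103 high cells, with a median of -0.50, and 5 passed with lower values. The mean of the list was 7.42 to 7.58 on MDP CD103 high arrays, against 8.04 to 8.38 on PBS CD103 high arrays. On MDP CD103 low arrays it was 7.93 to 8.84. Between 0 and 15 of the 26 passed with single arrays left out, with 0 without replicate 2 or 3 of MDP CD103 high or replicate 5 or 6 of PBS CD103 high, 15 without MDP CD103 low replicate 1, and 3 for most others. The part of these shifts in the small member differences was not tested.

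**Figure D5:**
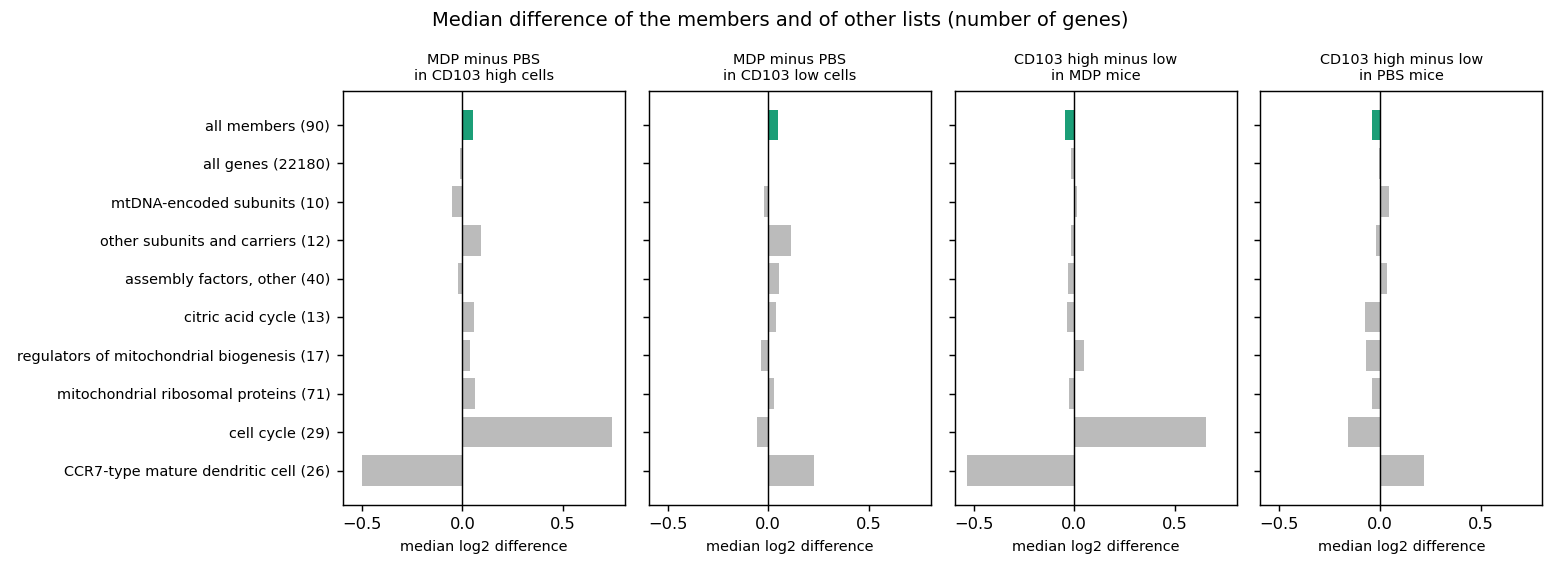
Median log2 difference (horizontal axis) of the members, of all genes and of 8 other gene lists in 4 comparisons, with the number of genes in brackets. The member bars reach about 0.05 in size, and the cell cycle bar reaches 0.74 after MDP in CD103 high cells.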

How the data were processed

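RNA of 13 sorted samples was hybridised to Mouse Gene 2.0 ST arrays from 400 ng, pre-amplified, per the labels. Per the submitters' processing notes, the authors used Affymetrix Expression Console and RMA, and each deposited value is the log2 level of a probe set. No version or genome build is given in the sources used here. Of 41345 probe sets, 23521 carried 1 symbol, 1814 several and 16010 were not listed. For the 1082 genes with several probe sets the one with the highest mean was used, which left 22180 genes and no filter on low values. The background level from olfactory receptor genes was chosen after values were seen. The 10 probe sets that name a member beside another gene, among them those of Cox6c, Ndufb2, Ndufb4, Ndufs6 and Uqcr10, were kept out of the counts; in a fit over all probe sets their adjusted p was never under the threshold.

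limma 3.58.1 (R 4.3.3; lmFit, contrasts.fit, eBayes) was fitted to all 13 arrays with 1 mean per group, 9 residual and 3.86 prior degrees of freedom and 7 contrasts. Tests were two-sided, with Benjamini-Hochberg adjustment over all genes and a threshold of 0.05. The code was tested on simulated data. The number of arrays limits the precision. Members, complexes, gene lists and markers were chosen with earlier results of these data known. Named are members with the smallest p per complex and contrast, the lowest and highest of each complex, all Sdh genes, Cyc1 and isoform pairs; from other lists, those past the threshold or with the smallest p.

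Alternatives were a trended robust variance, only the compared arrays, the mean of a gene's probe sets, other scalings, only genes above background, replicate blocks, the Xist class and leaving out arrays. The labels do not say what a replicate number marks. Deviations from the group means correlated at 0.253, 0.115, 0.225 and 0.289 over the 4 pairs of arrays with the same treatment and number. Pairs with different numbers were not set beside them, so these values do not show that a shared number matters. All 4 pairs also shared their Xist class, so number and Xist class cannot be told apart in them. The 5 same-number pairs across treatments ran from -0.130 to 0.403. The highest was number 4 of PBS CD103 low with number 4 of MDP CD103 high, which exceeds each of the 4 same-number pairs within a treatment. The block of number within treatment is therefore only an alternative, and the labels give no basis for it. Python 3.11.15 with numpy 2.4.6 and pandas 2.3.3 handled the tables, and matplotlib 3.10.9 drew the plots.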

Additional observations from a re-analysis of the deposited data

Results flagged for a closer look

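In the PBS CD103 low group, the only one with 4 arrays, 7 of 90 members had 1 array far from the others, where chance gives about 1 in 20. The share of all genes with such an array was not counted, so the count is not a trait shown for the members. Replicate 6 also had the lowest mean of this group over all genes above background, at 7.46 against 7.49 to 7.52. Replicate 6 was the low array for Cox6b1, at 9.22 against 9.55 to 9.58 on the others, for Cox7a2, at 11.46 against 11.59 to 11.61, for Ndufa12, at 9.23 against 9.39 to 9.41, and for Ndufb6, at 8.42 against 8.54 to 8.56. Replicate 4 was low for Ndufs4, at 10.13 against 10.20 to 10.21, and high for Uqcrc1, at 10.92 against 10.77 to 10.79. Replicate 1 was high for Uqcrfs1, at 8.05 against 7.97 to 7.98.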

How the results depend on the processing

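The count of members past the threshold was 0 in each of the 7 contrasts under nearly all alternatives. The exceptions were in MDP against PBS mice in CD103 high cells: 1 member passed with a trended robust variance (Ndufa4, adjusted p 0.0498), 1 with only genes above background (Ndufaf2, adjusted p 0.0475), and between 0 and 1 when single arrays were left out, with 1 (Ndufaf2, adjusted p 0.0460) without PBS CD103 low replicate 6. Over its alternatives the adjusted p of Ndufaf2 ran from 0.0460 to 0.814 and that of Ndufa4 from 0.0498 to 0.757; the cause was not tested. The median member difference kept its sign under all alternatives in the other 6 contrasts; in the interaction it ran from -0.021 to 0.037. In CD103 high cells after MDP it was 0.046 with treatment and number as a random replicate block. It was 0.041 with the number as a fixed block. Neither block changed the count of members past the threshold. Members higher after MDP in both gates numbered 47 with the fixed block and 54 with the random block, against 54. Members lower in CD103 high cells in both treatments numbered 56 and 53, against 52. The fixed block left 0 genes past the threshold in every contrast. The random block moved all genes past the threshold to 64 for the gates averaged over treatments, against 28. For MDP averaged over gates it moved them to 13, against 41. The number of all genes past the threshold after MDP in CD103 high cells, 403, was 609 with a trended robust variance, 699 with only genes above background, 200 with only the compared arrays, 99 without both PBS arrays numbered 6, 0 by either Xist set alone, and 82 to 594 with single arrays left out. Arrays with high Xist alone gave medians of 0.046 and 0.022 after MDP in CD103 high and CD103 low cells, and arrays with low Xist alone 0.074 and 0.063. Leaving out both PBS arrays numbered 6, those 2 sets of arrays by Xist, the counts shared by gates, and the single-array values of other gene lists were chosen after seeing the data. With 3 or 4 arrays a group, the number of arrays limits what single members can show, and signal below background limits Ndufs5 and Atp5o. Other members named for their differences lay not far above background, among them Atp5g1, Cox4i2, Cox7a1 and Atp5d, with means of 5.66, 5.69, 5.95 and 6.15.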
